A study of Mus musculus with 2 samples.

Results

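The nuclei described here are endothelial nuclei from the ascending aorta and arch of mice in which transcripts of Chrm3, Cyp4b1, Gkn3, Enpp6 and Selp outnumbered those of the other endothelial marker sets. Single-nucleus RNA sequencing had been done on Wnt1-Cre; Rosa26-mTmG mice, tissue of 6 animals being pooled for each sex, and each pool gave 1 deposited library, Female and Male. The labels give no age, treatment or control group. Every animal carried the same alleles: Cre recombinase is driven by Wnt1 regulatory sequence, active in premigratory neural crest, and the Rosa26 reporter makes membrane tdTomato until Cre acts and membrane GFP from then on. Each pool had been split into technical replicates that the barcodes do not separate, so every value below is 1 value per library, its interval covers counting error only, and nothing was tested.

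A nucleus was taken as endothelial when it had at least 300 detected genes, at least 3 unique molecular identifiers (UMIs, counted transcript molecules) summed over Ptprb, Pecam1, Cdh5 and Cyyr1, and more of these than of the smooth muscle transcripts Myh11, Acta2 and Lmod1. Within these nuclei 3 sums of UMIs were compared: A over Nrg1, Emcn, Bmp6, Edn1 and Otogl, B over Ankrd33b, Chn2, Kirrel3, Fgfr3 and Syt7, and C over Chrm3, Cyp4b1, Gkn3, Enpp6 and Selp. A nucleus was C-led when C was at least 2 and exceeded both A and B and no UMI of the lymphatic regulator Prox1 was present. Of 39516 nuclei in the series, 12387 were endothelial and 1064 of these were C-led. The same rule with the letters exchanged gave 7530 A-led and 2534 B-led nuclei, and 1259 endothelial nuclei remained.

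C-led nuclei made up 8.72% of endothelial nuclei in the Female library (464 of 5321, exact Clopper-Pearson 95% interval 7.98% to 9.51%) and 8.49% in the Male library (600 of 7066, 7.85% to 9.17%). The intervals of the libraries overlap. A-led nuclei numbered 3556 in Female and 3974 in Male nuclei, B-led nuclei 853 and 1681.

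Arterial endothelium forms the inner lining of the aorta, relaxes the underlying muscle through nitric oxide and related signals, and controls the passage and adhesion of blood cells. Chrm3 encodes the M3 muscarinic acetylcholine receptor, a receptor coupled to Gq proteins through which acetylcholine raises endothelial calcium and sets off nitric oxide release. Cyp4b1 encodes a cytochrome P450 monooxygenase, Gkn3 a secreted gastrokine, Enpp6 a choline-specific phosphodiesterase and Selp P-selectin, the storage-granule receptor on which leukocytes roll.

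The 250 bases before the RefSeq start (build GRCm38.p6) are given for 3 genes, so that regulatory sequence can be read beside values. Chrm3 supplied most of the C transcripts, and Gkn3 was the C gene with the highest ratio when left out of its own selection. Adra2a was taken from the protein-coding genes outside the rule that were past 2-fold higher in both libraries. Among these its smaller log2 ratio of the 2 libraries, after 5 CPM was added, was the highest. The Chrm3 stretch lies at chr13:10360804-10361053 on the minus strand, the Gkn3 stretch at chr6:87388936-87389185 on the minus strand and the Adra2a stretch at chr19:54045009-54045258 on the plus strand. Each is written 5′ to 3′ on the strand of its gene, and capitals mark AGGAAG (the ETS-type motif) and TATAAA (the TATA box) or their reverse complements.
Chrm3: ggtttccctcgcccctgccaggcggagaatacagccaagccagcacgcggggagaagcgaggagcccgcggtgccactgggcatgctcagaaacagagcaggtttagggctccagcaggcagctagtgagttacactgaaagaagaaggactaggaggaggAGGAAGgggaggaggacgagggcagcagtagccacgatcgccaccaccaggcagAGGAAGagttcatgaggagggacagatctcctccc
Gkn3: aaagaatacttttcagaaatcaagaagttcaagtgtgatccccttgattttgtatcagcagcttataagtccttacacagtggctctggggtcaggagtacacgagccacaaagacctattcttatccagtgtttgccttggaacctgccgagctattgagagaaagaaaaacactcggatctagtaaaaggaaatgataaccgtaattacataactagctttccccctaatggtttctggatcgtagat
Adra2a: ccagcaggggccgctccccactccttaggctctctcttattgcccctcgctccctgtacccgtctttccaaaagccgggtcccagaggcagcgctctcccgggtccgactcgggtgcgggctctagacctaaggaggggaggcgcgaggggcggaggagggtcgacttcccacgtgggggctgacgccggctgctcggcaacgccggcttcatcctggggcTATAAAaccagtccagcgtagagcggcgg

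The Chrm3 stretch holds 2 copies of AGGAAG, the first starting at position -89 from the start, and the Adra2a stretch holds TATAAA at position -29. No marked motif occurs in the Gkn3 stretch. Windows of 300 bases around the start were found for all 5 C genes and for 4 of the 5 genes described below as higher in C-led nuclei. Among these 9 genes, AGGAAG or its reverse complement was in 4 (35.4% of all 32851 RefSeq windows), ACAAT, a SOX-type motif, in 3 (31.0%), TATAAA in 1 (13.6%) and GTAAACA, a FOX-type motif, in 0 (3.65%). Both strands were searched and the motifs were counted separately, overlaps included; a match is a run of letters and no measured binding.

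The C genes stood highest in C-led nuclei in both libraries, which the rule made so, and their levels are given as a description. Levels are the UMIs of a gene scaled to counts per 1e6 UMIs summed over the nuclei of a set (CPM); they are not per length, so genes are not ranked against each other. Chrm3 (chr13:9875486-10360847, minus strand) had 2301 CPM in C-led, 611 in A-led, 275 in B-led and 425 in remaining endothelial nuclei of the Female library. In the Male library it had 1748, 486, 184 and 274 CPM. Chrm3 was thus found in every endothelial set, with the B-led nuclei lowest in both libraries.

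Cyp4b1 (chr4:115624725-115647723, minus strand) had 163 CPM in C-led, 83.6 in A-led and 40.0 in B-led nuclei of the Female library, and 166, 98.6 and 25.9 CPM in the Male library. Gkn3 (chr6:87383256-87388935, minus strand) had 336 CPM in C-led, 143 in A-led and 147 in B-led nuclei of the Female library, and 290, 104 and 65.9 CPM in the Male library. Enpp6 (chr8:46986887-47096762, plus strand) had 346 CPM in C-led, 200 in A-led and 154 in B-led nuclei of the Female library, and 330, 202 and 159 CPM in the Male library. Selp (chr1:164115264-164150026, plus strand) had 247 CPM in C-led, 147 in A-led and 90.0 in B-led nuclei of the Female library, and 279, 186 and 122 CPM in the Male library. All 5 were thus also present in A-led nuclei.

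In smooth muscle nuclei the 5 C genes had 2.88 to 19.1 CPM in the Female and 5.13 to 27.7 CPM in the Male library. Smooth muscle was not always the highest class outside the endothelium. Chrm3 had 70.6 CPM in Female and 43.4 CPM in Male fibroblast nuclei, and Selp had 46.0 and 16.5 CPM in macrophage nuclei. A Chrm3 UMI was seen in 87.9% of C-led nuclei of the Female library (84.6% to 90.8%), against 2.55% of its smooth muscle nuclei, at median depths of 3073 and 3947.5 UMIs. In the Male library the shares were 81.3% (78.0% to 84.4%) and 3.29%, at 2962.5 and 3155.5 UMIs. A-led nuclei had a Chrm3 UMI in 41.8% of Female and 41.2% of Male nuclei. Cyp4b1, the other gene in the name of this set, had a UMI in 30.4% of Female and 29.2% of Male C-led nuclei. The shares were 18.3% and 22.3% of A-led nuclei, and 0.977% and 1.52% of smooth muscle nuclei.

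The genes of the A and B sums differed among themselves in C-led nuclei. Bmp6, a ligand of the bone morphogenetic protein family, had 1273 CPM in C-led, 6170 in A-led and 928 in B-led nuclei of the Female library, and 1015, 5050 and 578 CPM in the Male library. It therefore remained present in C-led nuclei, with a UMI in 75.2% of them in Female and 76.7% in Male nuclei, against 10.7% and 11.2% of smooth muscle nuclei. Nrg1, the growth factor neuregulin 1, had 13.8 CPM in C-led and 435 CPM in A-led nuclei of the Female library, and 12.5 and 651 CPM in the Male library. Edn1, the precursor of the vasoconstrictor endothelin 1, had 154 CPM in C-led, 632 in A-led and 66.3 in B-led nuclei of the Female library, and 120, 581 and 39.6 CPM in the Male library. Of the B genes, Kirrel3, an adhesion molecule, was the one that stood lower in C-led than in A-led nuclei of both libraries, with 222 against 417 CPM in the Female and 261 against 464 CPM in the Male library.

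**Figure D1:**
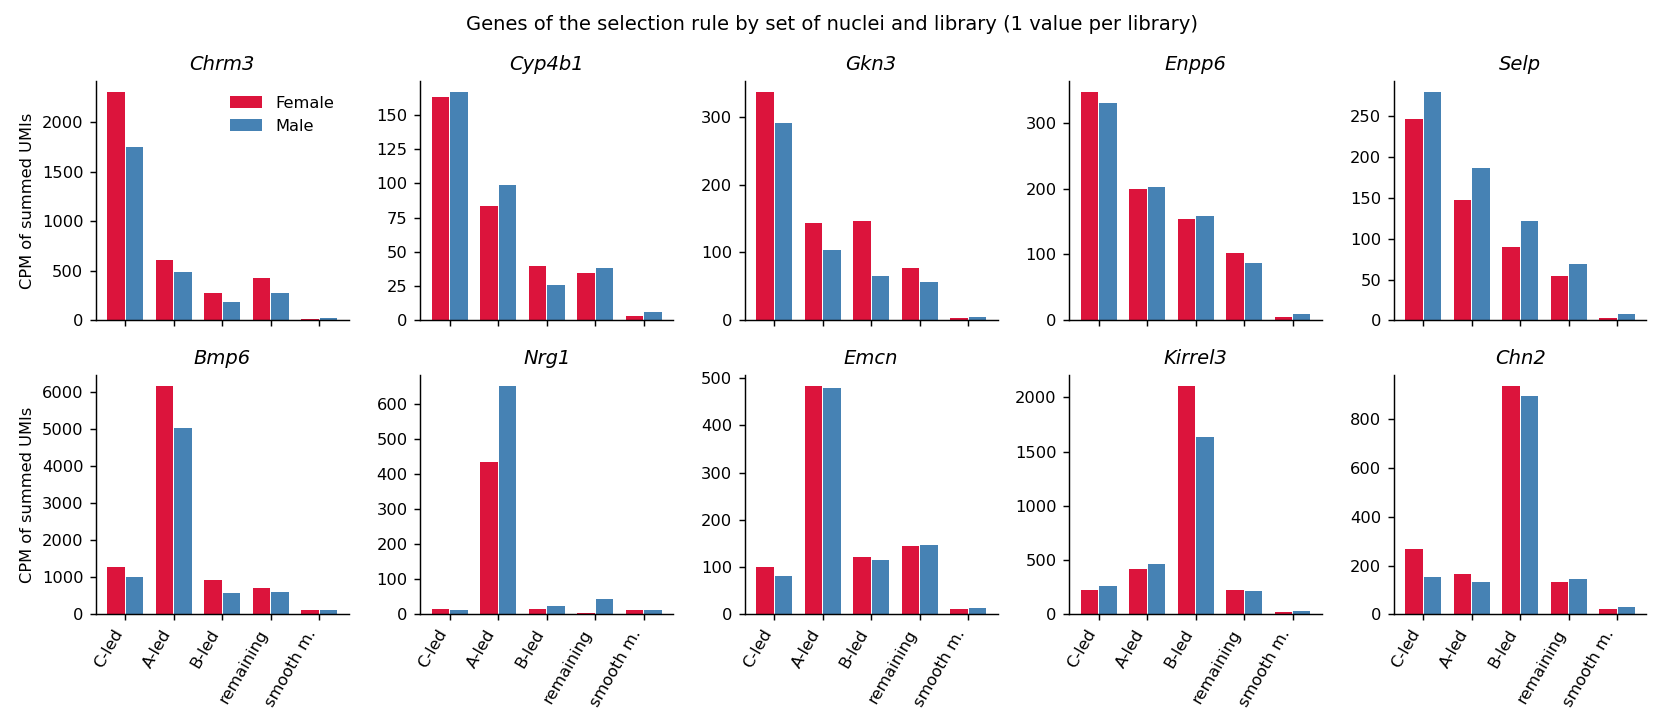
CPM of the 5 C genes (upper row), 3 A genes and 2 B genes (lower row) in C-led, A-led, B-led and remaining endothelial nuclei and in smooth muscle nuclei, each bar 1 library. Chrm3 reached 2301 CPM in Female and 1748 CPM in Male C-led nuclei, and Bmp6 stood at 1273 and 1015 CPM there, below A-led nuclei and above B-led nuclei.

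Chrm3 alone supplied 67.8% of the C UMIs of Female and 62.1% of those of Male C-led nuclei; Cyp4b1 supplied 4.80% and 5.91%. The median C sum was 10 UMIs in Female and 8 in Male nuclei, with a range of 2 to 51 in both. At least 2 of the 5 C genes were detected in 84.5% of Female and 79.2% of Male C-led nuclei, and all 5 in 26 and 19 nuclei. Chrm3 was the only C gene in 55 Female and 82 Male nuclei, and it was not detected in 56 and 112. Median A sums were 3.5 and 3 UMIs, and 86 Female and 108 Male nuclei had no A UMI at all.

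Nuclei near the limits of the rule are given as a description, since the sums that define them fix their Chrm3 levels. Those whose C sum exceeded the larger of A and B by 1 UMI had 1397 CPM of Chrm3 in Female and 1015 CPM in Male nuclei (92 and 134 nuclei), against 1141 and 908 CPM in nuclei where C equalled the larger sum (105 and 161 nuclei). Bmp6 had 1313 and 1174 CPM just inside, against 1223 and 1056 CPM just outside. C-led nuclei with a C sum of 2 had 451 and 421 CPM of Chrm3 (21 and 45 nuclei), against 133 and 119 CPM in nuclei with a C sum of 1 and no A or B UMI (12 and 32 nuclei).

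How far the 5 markers go together was read by leaving each in turn out of the C sum and measuring it in the nuclei that the other 4 chose, so that the gene did not take part in its own selection. The comparison nuclei still have less of the chosen genes by construction, and a nucleus left out because its A or B sum was high stays out. Chrm3 had 912 CPM in the 125 Female nuclei so chosen, against 684 CPM in the other endothelial nuclei, a ratio of 1.33 (1.20 to 1.47). In the 210 Male nuclei it had 715 CPM against 489 CPM, a ratio of 1.46 (1.33 to 1.60). Nuclei chosen without Chrm3 therefore had somewhat more Chrm3 than the rest, far less than the 2301 and 1748 CPM of the full set.

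Gkn3 gave the highest held-out ratios, 1.60 (1.42 to 1.79) in Female nuclei, with 238 against 149 CPM, and 1.81 (1.60 to 2.03) in Male nuclei, with 180 against 99.7 CPM. Cyp4b1 had 114 against 77.0 CPM in Female nuclei, a ratio of 1.47 (1.25 to 1.73), and 104 against 79.5 CPM in Male nuclei, a ratio of 1.31 (1.13 to 1.52). Enpp6 had 248 against 194 CPM in Female nuclei, a ratio of 1.28 (1.14 to 1.43), and 253 against 187 CPM in Male nuclei, a ratio of 1.35 (1.23 to 1.50). Selp had 154 against 139 CPM in Female nuclei, a ratio of 1.11 (0.965 to 1.27), and 176 against 167 CPM in Male nuclei, a ratio of 1.06 (0.938 to 1.19). The counting interval lay above 1 in both libraries for Chrm3, Cyp4b1, Gkn3 and Enpp6, and included 1 in both for Selp.

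Against A-led nuclei alone the held-out ratios were smaller. Gkn3 had ratios of 1.58 (1.40 to 1.77) in the Female and 1.60 (1.41 to 1.80) in the Male library, Chrm3 1.20 (1.09 to 1.33) and 1.21 (1.10 to 1.32), and Enpp6 1.20 (1.06 to 1.34) and 1.21 (1.09 to 1.34). Cyp4b1 had 1.30 (1.10 to 1.52) in the Female and 0.997 (0.855 to 1.16) in the Male library. Selp had 0.982 (0.852 to 1.13) and 0.898 (0.797 to 1.01). The interval against A-led nuclei lay above 1 in both libraries for Chrm3, Gkn3 and Enpp6, in the Female library alone for Cyp4b1 and in neither for Selp. The set is called C-led here, by its rule.

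**Figure D2:**
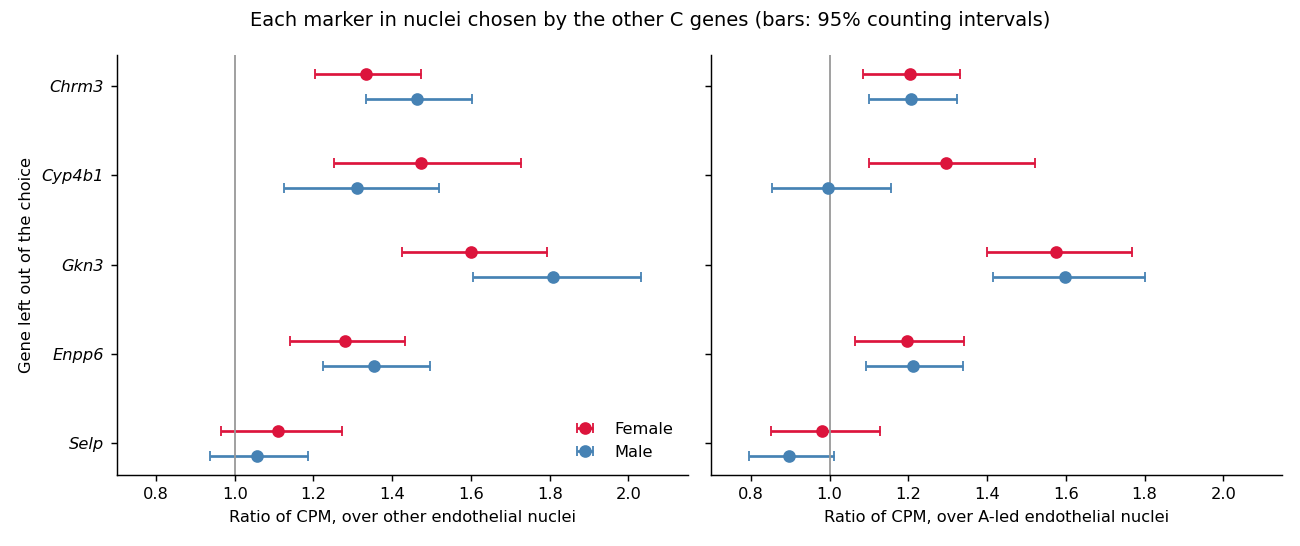
Ratio of CPM of each C gene in nuclei chosen by the other 4 C genes over other endothelial nuclei (left) and over A-led nuclei (right), with 95% counting intervals, Female and Male libraries apart. Gkn3 lies furthest above 1, at 1.60 and 1.81 on the left, and the Selp intervals include 1 on both sides.

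The position of C-led nuclei among all endothelial nuclei was described with the 15 nearest nuclei of each, computed on principal components of 2000 variable genes with every gene of the rule left out. On average 20.9% of the neighbours of Female C-led nuclei were themselves C-led, against 7.16% for other endothelial nuclei, where C-led nuclei made up 8.72% of the whole. The Male shares were 19.3%, 7.71% and 8.49%. A-led nuclei supplied 52.7% of the neighbours of Female and 52.8% of those of Male C-led nuclei, and B-led nuclei 17.3% and 17.4%. By the same measure 82.2% of the neighbours of Female A-led nuclei were A-led and 49.7% of those of Female B-led nuclei were B-led, with 77.2% and 61.6% in the Male library. Of all Female endothelial nuclei 66.8% were A-led and 16.0% B-led, and of all Male ones 56.2% and 23.8%. C-led nuclei therefore had more C-led neighbours and fewer A-led neighbours than these sets' shares of the whole, in both libraries. Their share of neighbours of their own kind was the lowest of the 3 sets, which differ in size, C-led nuclei being the fewest.

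**Figure D3:**
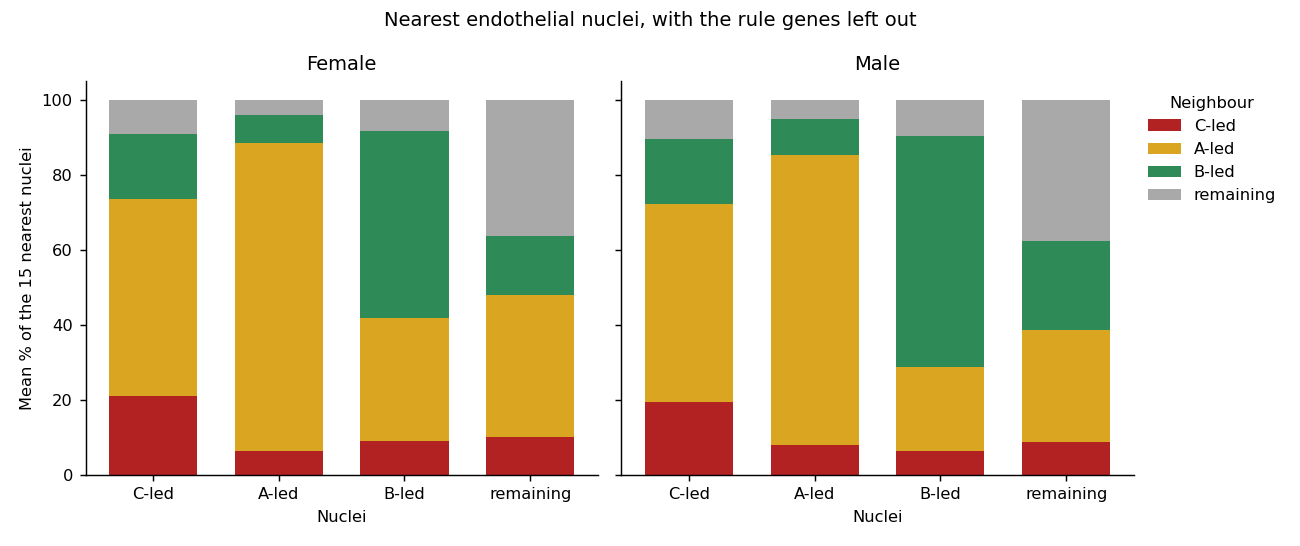
Mean percent of the 15 nearest endothelial nuclei that were C-led, A-led, B-led or remaining, for each set of nuclei, in the Female and the Male library. C-led nuclei had 20.9% and 19.3% C-led neighbours and 52.7% and 52.8% A-led neighbours.

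Outside the rule genes few transcripts set C-led nuclei apart. Of 8058 genes measured, 5 were at least 2-fold higher in C-led than in other endothelial nuclei in both libraries (0.0621%) and 29 at least 2-fold lower (0.36%). The size added to each CPM decided the first count, which was 10 with 1 CPM added and 0 with 20 CPM added. The 5 higher genes were Mannr, a long noncoding RNA, Adra2a, the alpha-2A adrenergic receptor, Eps8l2, an actin regulator, Sntg1, a syntrophin of the dystrophin complex, and Nt5e, the ecto-enzyme CD73 that makes adenosine from AMP. Ratios are log2 ratios of CPM after 5 CPM was added to each side, which understates the difference of low genes. The members of this contrast were chosen with expression of these same nuclei, so the counts are a description of them. The counts per library were 33 higher and 114 lower genes in the Female, and 11 and 52 in the Male library.

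Adra2a (chr19:54044151-54048982, plus strand) had 42.6 CPM in C-led nuclei, from 71 UMIs, against 13.2 CPM in the other endothelial nuclei of the Female library, a log2 ratio of 1.39. Male nuclei had 45.3 CPM, from 94 UMIs, against 15.7 CPM, a log2 ratio of 1.28. Its ratio of CPM was 3.22 (2.44 to 4.22) in the Female and 2.88 (2.27 to 3.62) in the Male library. The gene was also above both A-led nuclei (15.1 and 19.0 CPM) and B-led nuclei (8.45 and 8.46 CPM), and smooth muscle nuclei had 0.373 and 0.506 CPM.

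Mannr (chr3:29891014-29924191, plus strand) had 59.4 against 18.9 CPM in Female and 45.3 against 15.4 CPM in Male nuclei, log2 ratios of 1.43 and 1.30. It was lowest in B-led nuclei, at 5.52 and 5.53 CPM. Nt5e (chr9:88327197-88372092, plus strand) had 135 against 60.4 CPM in the Female and 117 against 54.9 CPM in the Male library, log2 ratios of 1.10 and 1.03. Nt5e too was lower in B-led nuclei (37.0 and 22.6 CPM) than in A-led nuclei (67.9 and 70.3 CPM).

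Eps8l2 (chr7:141338880-141363020, plus strand) had 31.8 against 9.21 CPM in the Female and 27.9 against 8.94 CPM in the Male library, log2 ratios of 1.37 and 1.24. Smooth muscle nuclei had 29.8 and 26.8 CPM of it, so that C-led nuclei stood near the level of those nuclei. Sntg1 (chr1:8361475-9299878, minus strand) had 40.2 against 16.1 CPM in the Female and 92.5 against 40.2 CPM in the Male library. Its log2 ratios were 1.10 and 1.11, but they turned to -0.72 and -0.12 when nuclei called as doublets were removed, and its difference rests on those nuclei. With the doublets removed 4 of the 5 genes stayed past 2-fold and the count of lower genes became 56.

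The same genes were read in the 125 Female and 210 Male nuclei chosen without Chrm3. All of these are C-led nuclei, chosen by a smaller C sum that still had to exceed A and B. Their values are therefore no independent check of genes found in the full set. Mannr had log2 ratios of 1.29 and 1.16 in them and Eps8l2 1.58 and 1.28, from 18 to 30 UMIs each. Adra2a had 1.27 and 0.90, Sntg1 1.37 and 0.82, and Nt5e 0.64 and 0.35, so 2 of the 5 genes stayed past 2-fold in both libraries. Within the full set, the 488 Male nuclei with a Chrm3 UMI had 51.2 CPM of Adra2a and the 112 without had 14.8 CPM, from 5 UMIs, near the 15.7 CPM of other endothelial nuclei. The 408 Female nuclei with a Chrm3 UMI had 45.8 CPM of Adra2a and the 56 without had 16.7 CPM, from 3 UMIs. Of Mannr the 56 Female nuclei had 5.57 CPM, from 1 UMI, and the 112 Male nuclei 23.8 CPM, from 8 UMIs. A pair of unnamed gene models, Gm47405 and Gm47411, was also higher, with log2 ratios of 1.57 and 1.26 in the Female and 1.44 and 1.41 in the Male library; both lie inside Chrm3 on its strand, reads of Chrm3 cannot be told apart from theirs, and they were left out of the counts with the rule genes.

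The lower genes were largely genes of A-led nuclei. Leaving aside 3 models that lack a proper symbol and 4 genes whose level free RNA of other cells could give, those with the most negative ratios are described. Gdf6, a ligand of the bone morphogenetic protein family (chr4:9844372-9862345), had 0 UMIs in Female C-led nuclei, which allows up to 1.80 CPM, against 26.4 CPM in the other endothelial nuclei, at least 14.7-fold lower. In Male C-led nuclei it had 5 UMIs, or 2.41 CPM, against 31.9 CPM, a ratio of 0.0755 (0.0244 to 0.177). B-led nuclei were low too, at 2.92 and 4.07 CPM, and A-led nuclei had 34.3 and 47.6 CPM.

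Thbs1, the matrix protein thrombospondin 1, had 18.0 CPM in C-led against 174 CPM in other endothelial nuclei of the Female library and 61.2 against 235 CPM in the Male library, log2 ratios of -2.96 and -1.86. Ctgf, a matricellular growth factor, had 27.0 against 94.0 CPM and 73.2 against 173 CPM, log2 ratios of -1.63 and -1.19. Frzb, a secreted Wnt antagonist, had 5.40 against 51.9 CPM and 25.1 against 66.6 CPM, log2 ratios of -2.45 and -1.25. The 112 Male C-led nuclei without a Chrm3 UMI had 77.2 CPM of Frzb, from 26 UMIs, which is above the 66.6 CPM of other endothelial nuclei. In B-led nuclei Thbs1 was 20.5 and 38.9 CPM, Ctgf 29.2 and 51.9 CPM, and Frzb 8.12 and 14.7 CPM, so for these secreted proteins C-led nuclei stood close to B-led nuclei and well below A-led ones.

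Genes of signalling were also highest in A-led nuclei. Lpar1, a receptor for lysophosphatidic acid, had 31.8 CPM in C-led, 143 in A-led and 21.1 in B-led nuclei of the Female library, and 36.1, 146 and 31.4 CPM in the Male library. Rps6ka2, a ribosomal S6 kinase, had 55.8 CPM in C-led, 247 in A-led and 76.7 in B-led nuclei of the Female library, and 44.3, 217 and 25.7 CPM in the Male library. Camk4, the calcium/calmodulin-dependent kinase IV, was also below B-led nuclei: it had 52.2 CPM in C-led, 329 in A-led and 218 in B-led nuclei of the Female library, and 86.2, 330 and 149 CPM in the Male library. Gna14, a G protein subunit of the Gq class, had 67.9 CPM in C-led, 166 in A-led and 150 in B-led nuclei of the Female library, and 49.6, 139 and 123 CPM in the Male library. Against B-led nuclei the log2 ratios of Camk4 were -1.96 and -0.75 and those of Gna14 -1.09 and -1.23, so both were below each of the larger sets in both libraries. The 112 Male C-led nuclei without a Chrm3 UMI had 246.5 CPM of Camk4, from 83 UMIs, against 262.6 CPM in the other endothelial nuclei. The 56 such Female nuclei had 66.8 CPM, from 12 UMIs, against 294.8 CPM.

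The other named lower genes were C1qtnf7, a secreted C1q/TNF-related protein, the metalloprotease Adam33, the mitochondrial carrier Slc25a21, the sphingomyelinase Smpd3 and the glypican Gpc6. Their log2 ratios against other endothelial nuclei lay between -1.94 for C1qtnf7 and -1.18 for Gpc6 in the Female library, and between -1.62 and -1.14 for the same genes in the Male library. The 112 Male C-led nuclei without a Chrm3 UMI had 201.9 CPM of C1qtnf7, from 68 UMIs, against 218.6 CPM in the others. The 56 such Female nuclei had 128.0 CPM, from 23 UMIs, against 207.5 CPM. Adam33 and Ctgf were higher still in smooth muscle nuclei, with 279 and 290 CPM in the Female and 268 and 536 CPM in the Male library, and the part of free smooth muscle RNA in their levels was not tested.

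The nuclei chosen without Chrm3 are a subset of the C-led nuclei, and their smaller C sum still had to exceed the A sum. That choice favours nuclei low in A transcripts, so their values are no separate support for the lower genes. In these nuclei 9 of the 14 lower genes described here were past 2-fold in both libraries. The exceptions were Ddah1, given below with the nitric oxide genes, Frzb with log2 ratios of -2.89 in Female and -0.39 in Male nuclei, Camk4 with -2.77 and -0.83, C1qtnf7 with -1.45 and -0.88, and Ctgf with -0.96 and -0.97. The interval of the ratio of Frzb in the Male library was 0.508 to 1.06 and so included 1.

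**Figure D4:**
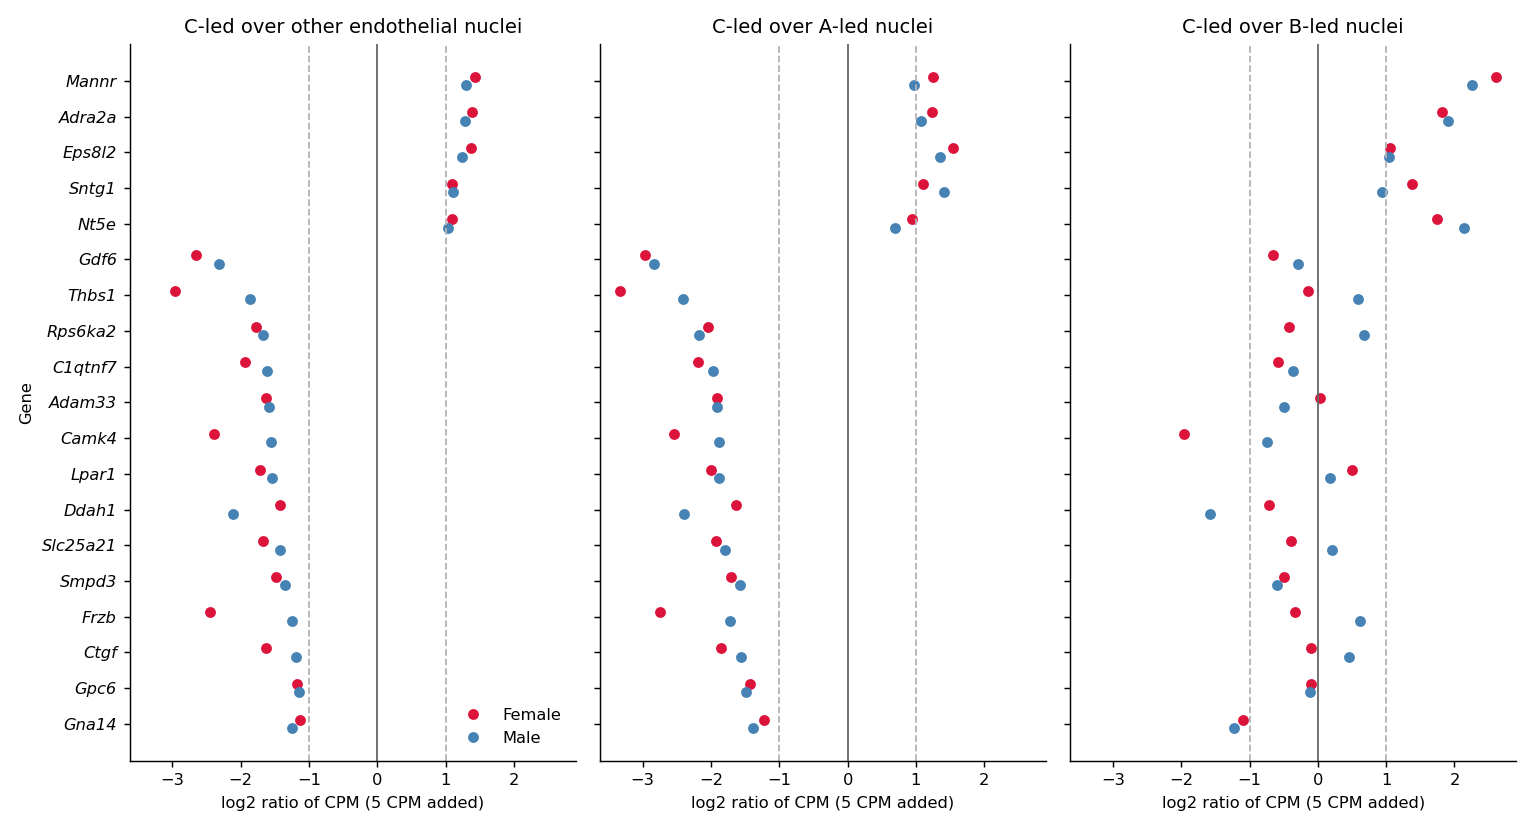
Log2 ratio of CPM of C-led over other endothelial (left), A-led (middle) and B-led nuclei (right) for the named genes, Female and Male points apart, with dashed lines at 2-fold. The 14 lower genes shown lie left of -1 against A-led nuclei in both libraries, while against B-led nuclei most lie between -1 and 1.

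Compared with single sets, C-led nuclei had 13 genes at least 2-fold higher than A-led nuclei in both libraries (0.162% of 8019 measured) and 45 lower (0.561%). Against B-led nuclei 36 were higher (0.444% of 8116) and 47 lower (0.579%). Against the remaining endothelial nuclei 56 were higher (0.632% of 8867) and 541 lower (6.1%). By the rule the remaining nuclei hold every endothelial nucleus with a Prox1 UMI, which 9.60% of Female and 9.74% of Male remaining nuclei had. The remaining nuclei also had more lymphocyte, fibroblast and adipocyte transcripts. Bank1, for example, had 469 CPM in Female and 186 CPM in Male remaining nuclei, against 12.0 and 2.41 CPM in C-led nuclei. Adipocyte markers summed to 3144 and 1998 CPM in remaining nuclei, against 422 and 814 CPM in C-led nuclei. The following genes were chosen after their values were seen. Dkk2, a secreted Wnt modulator, had 109 CPM in C-led, 14.3 in A-led and 114 in B-led nuclei of the Female library, and 51.1, 16.4 and 74.9 CPM in the Male library. Pthlh, a parathyroid hormone-related peptide, had 45.6 CPM in C-led, 9.24 in A-led and 41.9 in B-led nuclei of the Female library, and 29.4, 9.86 and 47.7 CPM in the Male library. Both thus stood above A-led nuclei, at or below the level of B-led nuclei in the Male library.

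Other genes went with A-led rather than B-led nuclei. Unc5d, a netrin receptor, had 46.8 CPM in C-led, 69.4 in A-led and 1.63 in B-led nuclei of the Female library, and 38.5, 83.6 and 2.44 CPM in the Male library. Hoxb6, a homeobox transcription factor of trunk position, had 48.0 CPM in C-led, 27.3 in A-led and 6.82 in B-led nuclei of the Female library, and 40.0, 22.6 and 4.72 CPM in the Male library. Its neighbour Hoxb5 had 21.0 CPM in C-led, 9.16 in A-led and 3.90 in B-led nuclei of the Female library, and 15.4, 7.69 and 2.44 CPM in the Male library, and both genes overlap the same noncoding model. Cdh11, a cadherin, was 43.8 CPM in C-led, 24.1 in A-led and 147 in B-led nuclei of the Female library, and 28.9, 37.7 and 247 CPM in the Male library. For Hoxb5 and Hoxb6, C-led nuclei had the highest CPM of the 3 sets in both libraries.

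Ptchd1, a patched-domain membrane protein, was 48.6 CPM in C-led against 7.53 CPM in other endothelial nuclei of the Female library, a ratio of 6.46 (4.84 to 8.57). In the Male library it was 14.9 against 6.05 CPM, a ratio of 2.47 (1.62 to 3.65), and its log2 ratio of 0.85 did not reach 2-fold there. Klk10, a kallikrein-related peptidase, had 109 against 55.9 CPM in the Female and 117 against 69.0 CPM in the Male library, log2 ratios of 0.90 and 0.72. B-led nuclei had more Klk10 than C-led nuclei, at 135.5 and 124.7 CPM, and A-led nuclei had 38.7 and 50.9 CPM. Klk11 had 30.6 against 15.1 CPM and 30.3 against 15.8 CPM, log2 ratios of 0.82 and 0.77.

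Gene lists were read beside the same measure over all 8058 genes, whose median log2 ratio was 0.00 in both libraries, with 30.1% above 0 in both and 29.8% below 0 in both. Of 21 measured genes of muscarinic and nitric oxide signalling, 0 were 2-fold higher and 1 was 2-fold lower, with medians of 0.10 in Female and 0.11 in Male nuclei, and 14 genes lay above 0 in both. The lower gene was Ddah1, which breaks down an inhibitor of nitric oxide synthase, with log2 ratios of -1.43 in Female and -2.11 in Male nuclei; in the nuclei chosen without Chrm3 it had -0.46 and -1.71, and in Female nuclei the ratio's interval there included 1 (0.407 to 1.13). Kcnn3 and Kcnn4, calcium-activated potassium channels of the endothelium, had log2 ratios of 0.48 and 0.53 in the Female and 0.61 and 0.36 in the Male library. Against B-led nuclei the log2 ratios of Kcnn4 were -0.47 and -0.49, and those of Kcnn3 -0.01 and 0.29. Nos3, the endothelial nitric oxide synthase, had 542 against 463 CPM and 564 against 496 CPM.

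Of 20 measured genes of the response to flow, 0 were 2-fold higher and 3 were 2-fold lower, Thbs1, Ctgf and Cyr61, where 0.0621% and 0.36% of all genes measured were so called. Cyr61, a matricellular protein, had 84.1 against 215 CPM in the Female and 87.7 against 182 CPM in the Male library, log2 ratios of -1.31 and -1.01. B-led nuclei had less Cyr61 than C-led nuclei, at 73.1 and 65.6 CPM, and A-led nuclei had 265 and 248 CPM. Klf2, a transcription factor that laminar flow induces, had 124 against 84.1 CPM and 133 against 93.7 CPM, log2 ratios of 0.54 and 0.49. B-led nuclei had more Klf2 than C-led nuclei, at 157.9 and 157.1 CPM. The list's medians were 0.15 and 0.03.

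Of 22 measured genes of BMP and TGF-beta signalling none was past 2-fold in both libraries, and 13 lay below 0 in both, with medians of -0.20 and -0.17. Bmp4, a ligand, had 638 against 1186 CPM in the Female and 616 against 1032 CPM in the Male library. The inhibitor Smad6 had 437 against 808 CPM and 334 against 576 CPM, the ligand Tgfb2 42.0 against 130 CPM and 54.0 against 102 CPM, and the co-receptor Eng 334 against 487 CPM and 296 against 415 CPM. Against B-led nuclei the log2 ratios of Bmp4 were 0.29 and 0.46 and those of Smad6 -0.02 and -0.01. The summed level of the list was 6014 CPM in C-led against 7644 CPM in other endothelial nuclei of the Female library and 5733 against 6856 CPM in the Male library; the A gene Bmp6 is not in it.

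Arterial and venous lists had medians near that of all genes. The 19 measured arterial genes had medians of -0.05 and 0.04, with 7 above 0 and 8 below 0 in both libraries. Among them Sema3g, a secreted semaphorin, had 37.2 against 14.5 CPM in the Female and 34.7 against 17.6 CPM in the Male library. B-led nuclei had 25.7 and 29.0 CPM of Sema3g. Unc5b, a netrin receptor, had 13.2 against 34.0 CPM and 15.9 against 33.0 CPM. The 10 venous genes had medians of 0.13 and 0.09. The 21 genes of endothelial identity had medians of 0.15 and 0.06. Cldn5, a tight junction protein, had 232 against 116 CPM and 265 against 181 CPM, while B-led nuclei had 234.3 and 352.5 CPM. Calcrl, a receptor for calcitonin-family peptides, had 181 against 402 CPM and 217 against 383 CPM. In no list was a gene 2-fold higher in both libraries. Of 15 measured genes of leukocyte adhesion and storage granules, 11 lay above 0 in both libraries, with medians of 0.19 and 0.10.

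Mgp, matrix Gla protein, had 2647 against 1553 CPM in the Female and 2435 against 1515 CPM in the Male library, log2 ratios of 0.77 and 0.68. The 21 measured matrix genes of its list had medians of -0.18 and -0.04. Of 9 measured immediate early genes, whose transcripts rise fast after a stimulus, 6 lay above 0 in both libraries and 0 below, with medians of 0.58 and 0.23. Egr1 had 55.8 against 25.8 CPM in the Female and 24.6 against 19.6 CPM in the Male library. The median mitochondrial share of UMIs was 0.438% in C-led against 0.286% in other endothelial nuclei of the Female library and 0.474% against 0.346% in the Male library, and its part in these values was not tested.

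Markers of other cell types were read as lists. The smooth muscle markers, 13 of them measured, summed to 2324 CPM in C-led against 2171 CPM in other endothelial nuclei of the Female library and 2085 against 1984 CPM in the Male library, none being at 0 in C-led nuclei. The fibroblast markers, 11 of them measured, summed to 2178 against 3876 CPM and 2207 against 4113 CPM. Gpc6 alone supplied 1281 and 1187 CPM in C-led nuclei, against 2918 and 2630 CPM in the others, and so most of the difference. Macrophage markers summed to 513 against 566 CPM and 466 against 592 CPM, lymphocyte markers to 57.0 against 107 CPM and 29.4 against 104 CPM, with 3 and 5 of 11 genes at 0 in C-led nuclei. Adipocyte markers summed to 422 against 888 CPM in the Female and 814 against 882 CPM in the Male library, and their medians of -1.02 and -0.12 differed by library. Lipid handling genes had medians of -0.44 and -0.06 and capillary genes -0.83 and -0.05. Without called doublets the capillary medians were -0.51 in Female and 0.24 in Male nuclei. The lipid handling and capillary lists both hold adipocyte transcripts such as Fabp4, Lpl and Cd36, and the part of free adipocyte RNA was not tested.

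**Figure D5:**
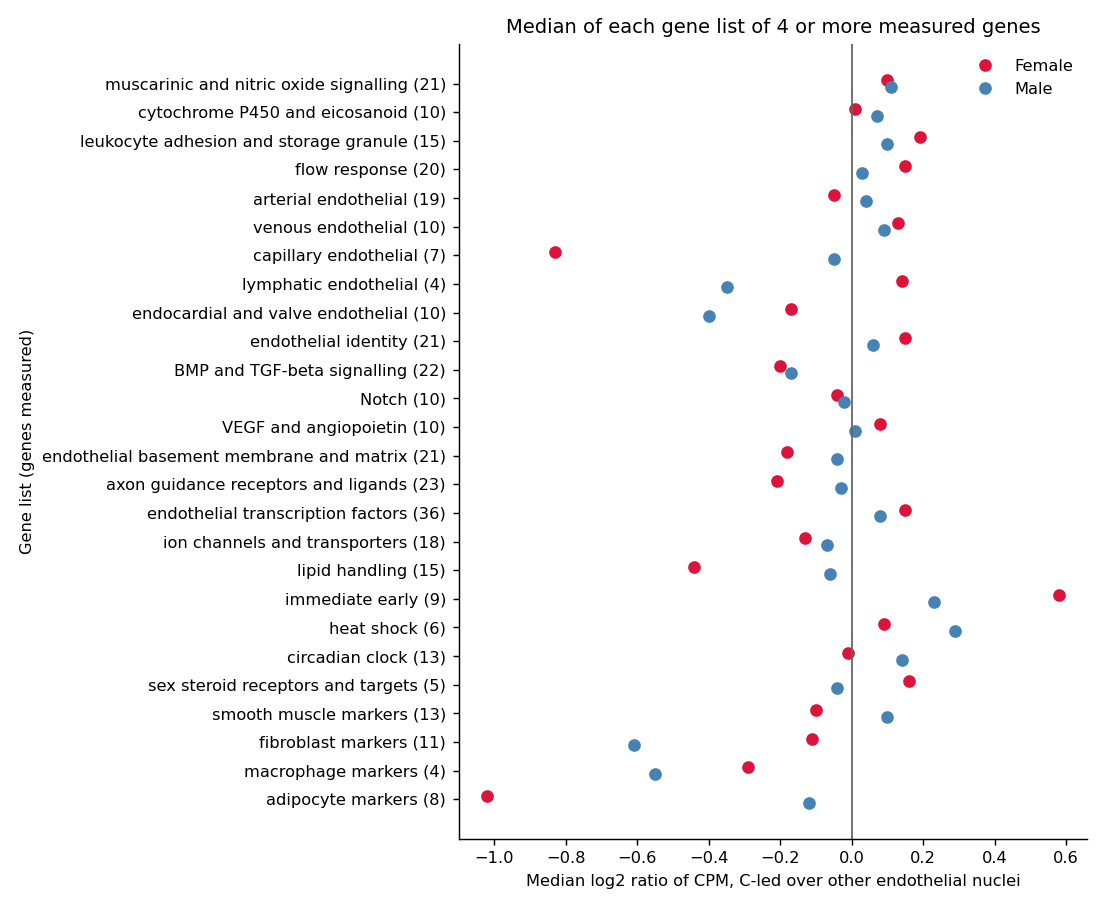
Median log2 ratio of CPM of C-led over other endothelial nuclei for each gene list with at least 4 measured genes (number in brackets), Female and Male points apart. Most lists lie near 0; the adipocyte list lies at -1.02 in Female and -0.12 in Male nuclei and the immediate early list at 0.58 and 0.23.

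The reporter shares of C-led and other endothelial nuclei had overlapping intervals. GFP made up 18.3% of reporter UMIs in C-led nuclei (114 of GFP and 508 of tdTomato, 15.4% to 21.6%), against 17.8% in other endothelial nuclei of the Female library (16.8% to 18.8%). It made up 17.2% in the Male library (123 and 590 UMIs, 14.6% to 20.2%), against 18.7% (17.8% to 19.6%). Smooth muscle nuclei had 54.9% in Female and 53.6% in Male nuclei. GFP without tdTomato was seen in 24 of 464 Female and 31 of 600 Male C-led nuclei, and free reporter RNA can give such UMIs; its part was not tested.

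Female and Male C-led nuclei were set beside each other with 1 library each, so size alone was counted and no test exists. Of 7838 genes measured, 29 were at least 2-fold higher in Female C-led nuclei (0.37%) and 104 at least 2-fold lower (1.33%). In the other endothelial nuclei, which are many more, the counts were 3 (0.0394%) and 35 (0.46%) of 7615. Of the 104 lower genes 57 had levels that free RNA of other cells could give and 6 were sex-linked, and 43 genes were lower after nuclei were thinned to 2000 UMIs, with shallower ones left out (108 of 464 Female and 157 of 600 Male C-led nuclei). The C genes differed less between the libraries: the ratio of Female to Male CPM was 1.32 (1.26 to 1.38) for Chrm3, 0.979 (0.832 to 1.15) for Cyp4b1, 1.16 (1.03 to 1.30) for Gkn3, 1.05 (0.935 to 1.17) for Enpp6 and 0.885 (0.778 to 1.01) for Selp, each under 2-fold.

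The sex-linked transcripts checked the labels of the libraries. Xist had 1006 UMIs in Female and 0 in Male C-led nuclei, while Uty, Eif2s3y, Ddx3y and Kdm5d of the Y chromosome had 0 UMIs in Female and 69 to 294 UMIs in Male C-led nuclei. Of the other higher genes, Nlgn1, the synaptic adhesion protein neuroligin 1, had 94 UMIs (56.4 CPM) in Female and 9 UMIs (4.33 CPM) in Male C-led nuclei, a ratio of 13.02 (6.57 to 29.4). Ano4, a membrane protein of the anoctamin family, had 56 UMIs (33.6 CPM) in Female and 7 UMIs (3.37 CPM) in Male C-led nuclei. Nlgn1 was equal in the other endothelial nuclei of the libraries, at 14.2 CPM in both, and Ano4 had 14.5 and 1.61 CPM there.

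Of the lower genes, Grip1, a scaffold protein of glutamate receptors, had 10 UMIs (6.00 CPM) in Female and 172 UMIs (82.9 CPM) in Male C-led nuclei, a ratio of 0.0725 (0.0341 to 0.137). Fkbp5, a glucocorticoid-induced co-chaperone, had 93 UMIs (55.8 CPM) in Female and 372 UMIs (179 CPM) in Male C-led nuclei, and 51.4 and 210 CPM in the other endothelial nuclei. Lrg1, a secreted glycoprotein, had 4.80 CPM in Female and 28.4 CPM in Male C-led nuclei, and 3.07 and 26.8 CPM in the others. Fkbp5 and Lrg1 thus differed between the libraries in all endothelial nuclei alike, whereas Grip1 stood at 20.9 and 32.7 CPM in the others. Frzb and Thbs1 were lower in Female than in Male C-led nuclei too, with log2 ratios of -1.53 and -1.52. The remaining named genes with higher values in Female C-led nuclei were Grm7, Ccdc39, Ntng1, Myo5b, Rapgef4, Grin3a and Sesn3, with log2 ratios of 1.23 to 1.69, and those with lower values were Acsm3, Nrg2, Kcnd2, Ehhadh and Fam155a, with log2 ratios of -2.39 to -1.51. Each had 63 or fewer UMIs in the Female nuclei.

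The median depth was 3073 UMIs in C-led against 3225 UMIs in other endothelial nuclei of the Female library and 2962.5 against 3180 UMIs in the Male library. Doublet calls covered 6.25% of Female and 8.33% of Male C-led nuclei, against 6.01% and 8.86% of the others. The libraries shared 4286 barcode sequences, 96 of them among Female and 141 among Male C-led nuclei, and 2 were C-led in both. Without them the counts of genes were 5 higher and 27 lower.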

How the data were processed

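Nuclei of the ascending aorta and arch had been sequenced by a droplet method, with 1 Female and 1 Male library. The files deposited by the authors hold unnormalized UMI counts for every gene in every barcode; the matrices are from Cell Ranger 7.0.0 per the file headers. The submitters' processing notes list Seurat 4.4.0, Cell Ranger and STAR with the build GRCm38. Which annotation, strand setting and intron mode were applied is not given in the sources used here, and genes that overlap another model are uncertain for that reason. The libraries hold 79294181 (Female) and 77989549 (Male) UMIs in 18872 and 20659 barcodes, each with at least 500 UMIs; those with 300 or more genes were kept.

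From the counts, UMIs were summed per library and set of nuclei and scaled to CPM over all 54754 features, and log2 ratios were taken after adding 5 CPM. Genes needed 50 UMIs over the units and 20 CPM in any. A gene was counted when it was 2-fold apart the same way in both libraries. With 1 library per sex, and sets chosen by expression, no test was made. Shares carry exact Clopper-Pearson and ratios exact conditional binomial intervals at 95%, for counting error only. The members and gene lists were chosen with earlier results of these data known. Named genes were those furthest past 2-fold (up to 20 higher and 15 lower; 10 each way between the sexes), without models lacking a proper symbol and genes under 0.1 of their CPM in the highest of the smooth muscle, fibroblast, macrophage and adipocyte nuclei, the sex-linked ones apart. A few genes that this rule names are not reported here. Nuclei called as doublets by scrublet, in scanpy 1.11.5 at an expected rate of 0.08, were kept, and removed as an alternative. Gene positions came from a GRCm38 annotation matched by Ensembl identifier (54723 features) and promoter sequences from RefSeq. The counting of genes was tested on simulated data. edgeR 4.0.16 gave the TMM factors, in R 4.3.3; the rest was computed in Python 3.11.15 with scipy 1.17.1. Other alternatives were the pseudocount, the filter on low genes, the rule's minimums, each C gene left out, thinning to 2000 UMIs and removal of barcodes found in both libraries.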

Additional observations from a re-analysis of the deposited data

Results flagged for a closer look

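A pair of genes went opposite ways in C-led against other endothelial nuclei of the libraries, each by more than 2-fold; the difference between the libraries was not tested. Nlgn1, the synaptic adhesion protein neuroligin 1 (chr3:25426215-26332460, GRCm38), had 56.4 CPM in C-led against 14.2 CPM in other nuclei of the Female library, a log2 ratio of 1.68. In the Male library it had 4.33 CPM, from 9 UMIs, against 14.2 CPM, a log2 ratio of -1.04. Grip1, a scaffold protein of glutamate receptors (chr10:119453830-120087261), had 6.00 CPM, from 10 UMIs, in C-led against 20.9 CPM in other nuclei of the Female library, a log2 ratio of -1.23. In the Male library it had 82.9 CPM against 32.7 CPM, a log2 ratio of 1.22. Grip1 overlaps the coding gene Helb.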

How the results depend on the processing

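C-led and other endothelial nuclei were compared within each library, and with 1 library per sex no paired test was made. The count of higher genes, 5, became 10 with 1 CPM added, 0 with 20 CPM added and 3 among genes with 200 UMIs and 50 CPM; the count of lower genes, 29, became 13 with 20 CPM added and 56 without called doublets. The share of C-led nuclei was 2.35% (Female) and 2.97% (Male) with Chrm3 left out of the sum, 7.25% in both without Gkn3, 7.07% and 7.09% without Enpp6, 7.76% and 7.18% without Selp, and 7.69% in the Male library without Cyp4b1. Between the sexes, the higher count became 46 with 1 CPM added and 6 with 20 CPM added or the stricter filter; the lower count became 41 with 20 CPM added, 27 with the stricter filter and 43 after thinning. Sntg1 turned to -0.72 and -0.12 without called doublets. The causes were not tested. Of 440 values of named genes 401 moved by less than their counting error and 37 by more. Of the 37, 21 came with Chrm3 left out of the sum, an alternative chosen after seeing the data. Held-out markers, reporter and neighbour shares did not move beyond theirs. None of 126 values of list medians was counted as moved, but no counting interval is given for a median. Without called doublets the capillary medians went from -0.83 to -0.51 in the Female and from -0.05 to 0.24 in the Male library. TMM scaling gave 5 higher and 27 lower genes. Depth limits the values of genes with few UMIs.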
